A study of Rattus norvegicus with 24 samples.

Results

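The glutathione, glucuronide and sulphate transferases are the enzymes that attach a water-soluble group to drugs, hormones and reactive compounds. They were taken here as every gene with a single symbol in the probe set annotation that starts with Gsta, Gstm, Gstp, Gstt, Gsto, Gstk, Gstz, Mgst, Ugt1, Ugt2, Ugt3 or Sult, each measured by its probe set with the highest mean over all arrays. This rule uses no difference between groups, and it gave 45 of the 14201 genes named: 20 soluble and kappa glutathione transferases, 3 microsomal ones (Mgst), 8 glucuronosyltransferases of family Ugt2 and 14 sulphotransferases (Sult). No Ugt1 gene had a probe set that names it alone.

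Glutathione transferases join glutathione to electrophiles, and the microsomal enzymes do so within membranes. Glucuronosyltransferases add glucuronic acid from UDP-glucuronate, and sulphotransferases add sulphate from the donor PAPS to phenols, steroids and bile acids. The liver is the main organ of all 3 reactions. Cyclophosphamide is an alkylating cytostatic drug that liver enzymes activate, and alpha and pi class glutathione transferases can conjugate its reactive metabolites, acrolein among them.

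The arrays measured liver and spleen of 12 male wild-type Sprague-Dawley rats, 46 to 49 days old. In each organ there were 3 rats given cyclophosphamide by mouth (40 mg/kg/day for 5 days) with wood in the cage, 3 given the drug without wood, 3 given vehicle with wood and 3 given vehicle without wood, with 1 array per organ and rat (24 arrays). The drug effect below is the mean difference, drug minus vehicle, over both housings, and the wood effect is wood minus no wood over both treatments. Levels are log2 intensities, so that a difference of 1 is a doubling. A level of one gene is not set against that of another, since probe sets differ in brightness.

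Between 4924 and 6060 probe sets per array were blank in liver, and between 1021 and 1920 in spleen. The summed intensity of 10 hepatocyte marker genes was 96274 to 108030 in livers and 307 to 938 in spleens, and in vehicle rats that of 4 B cell genes was 117 to 152 in livers and 9901 to 12851 in spleens, so both organ labels held. The liver array of rat 2003 (drug, no wood) stood apart, since 6060 of its probe sets were blank and its correlation with the rest of the livers averaged 0.847, where each other rat reached 0.906 or more. In spleen, rats 1001, 1003 and 1005 (all vehicle rats without wood) and 2005 (drug, no wood) had 1778 to 1920 blanks and the other 8 rats 1021 to 1183. This division runs partly with the groups. Of the 45 genes, 38 had a value on every liver array and 36 on every spleen array.

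In liver, the drug raised 1 transferase gene past the threshold, the alpha class glutathione transferase Gsta3. The other 40 members tested did not pass. Gsta3 stood at 6.75, 7.32 and 6.96 in drug rats with wood and at 7.43, 8.51 and 8.01 in drug rats without wood. In vehicle rats it stood at 3.30, 3.91 and 5.54 with wood and at 4.19, 4.70 and 6.04 without. All 6 drug rats lay above all 6 vehicle rats, the nearest vehicle rats being 3005 and 1005. The drug effect was 2.89 ± 0.43 (log2, SE; limma, adjusted p = 0.0209), a fold of 7.39 (95% interval 3.78 to 14.5). It was 2.76 with wood and 3.01 without. Leaving out rat 1001, 1003, 3003 or 4003 ended the call, with an adjusted p of 0.0149 to 0.0648 over the 12 rats left out in turn, while the change stayed between 2.65 and 3.21. Under 7 other settings that kept all rats the call held, and the change ran from 2.22 to 2.89. The vehicle levels were dim, below the median of 7.24 over all liver values, and blank cells lie among dim probe sets.

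**Figure D1:**
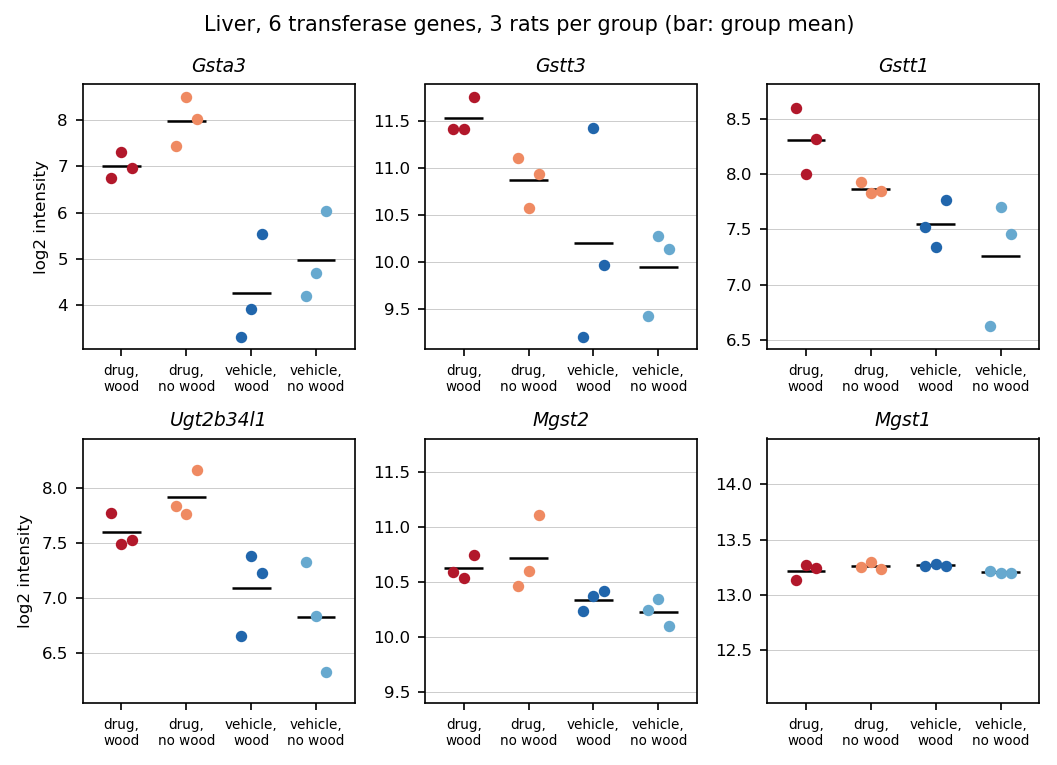
Liver log2 intensity (y axis) of 6 transferase genes in the 3 rats of each group (points) with the group mean (bar). The 6 drug rats lie above the 6 vehicle rats for Gsta3 (6.75 to 8.51 against 3.30 to 6.04), Gstt1, Ugt2b34l1 and Mgst2, whereas Gstt3 overlaps through 1 vehicle rat and Mgst1 stays at 13.1 to 13.3 in every rat.

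Gsta3 carries the RefSeq synonyms Gsta5 and Yc2, and the related Gsta1, whose rise in spleen had the smallest p among the members, carries Yc1. Gsta1 also carries the synonyms Gsta3 and Gsta5, so these names alone do not tell the 2 genes apart. The regions around the annotated starts of both genes are printed here because these 2 neighbours on chromosome 9 had the smallest p of the members in liver and in spleen, and those of Mgst1 and Sult1a1 because they rose with Gsta1 in spleen. Each is 300 bases of the gene's strand from RefSeq, build GRCr8, with 250 bases before the start and 50 after it: chr9:31154739-31155038 (plus strand) for Gsta3, chr9:31216483-31216782 (minus) for Gsta1, chr4:172760680-172760979 (plus) for Mgst1 and chr1:190706063-190706362 (minus) for Sult1a1. Capitals mark the motif TGACNNNGC, the core of the antioxidant response element.
Gsta3: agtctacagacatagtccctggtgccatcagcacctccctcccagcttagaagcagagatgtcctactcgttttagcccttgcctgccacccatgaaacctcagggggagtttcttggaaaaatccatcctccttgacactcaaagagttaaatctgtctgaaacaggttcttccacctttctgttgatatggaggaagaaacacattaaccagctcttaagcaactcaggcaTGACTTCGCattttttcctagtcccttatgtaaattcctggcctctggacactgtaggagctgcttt
Gsta1: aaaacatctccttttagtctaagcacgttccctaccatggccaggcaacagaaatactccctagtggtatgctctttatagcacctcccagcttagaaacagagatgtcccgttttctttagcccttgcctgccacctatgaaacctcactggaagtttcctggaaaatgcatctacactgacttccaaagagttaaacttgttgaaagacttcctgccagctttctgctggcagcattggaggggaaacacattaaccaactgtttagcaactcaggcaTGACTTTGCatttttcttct
Mgst1: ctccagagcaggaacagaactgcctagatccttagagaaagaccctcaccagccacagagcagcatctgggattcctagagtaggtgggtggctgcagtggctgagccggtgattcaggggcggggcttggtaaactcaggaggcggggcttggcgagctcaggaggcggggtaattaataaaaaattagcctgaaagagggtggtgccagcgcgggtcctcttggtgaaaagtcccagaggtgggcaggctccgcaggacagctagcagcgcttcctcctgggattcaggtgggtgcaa
Sult1a1: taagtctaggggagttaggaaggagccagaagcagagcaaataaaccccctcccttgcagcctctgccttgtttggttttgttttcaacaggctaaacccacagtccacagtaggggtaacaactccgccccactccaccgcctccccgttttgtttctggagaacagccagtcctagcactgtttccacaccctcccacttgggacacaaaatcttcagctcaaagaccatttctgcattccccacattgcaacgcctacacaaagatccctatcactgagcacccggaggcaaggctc
The Gsta3 and Gsta1 windows were identical at 203 of 248 aligned bases (81.9%), against 59% to 63.9% for the other 5 pairs of these windows. Both hold the motif within one similar stretch, at position -17 in Gsta3 and at position 31 in Gsta1, counted from the start that each window uses. That start lies at the outer end of the RefSeq gene record for Gsta3, Mgst1 and Sult1a1, but 74 bases inside it for Gsta1. The Gsta3 table entry has a second start, whose window lacks this motif.

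Windows were found for 39 of the 45 genes, and both strands were searched. TGACNNNGC was present in 6 of the 39 genes (15.4%), against 13.1% of all 27457 genes in the table counted in the same way, over any of their windows (12.1% of the 33469 windows). The 6 were Gsta1, Gsta3, Gstm5, Gstm7, Gstp1 and Gstz1. GCGTG, the core bound by the aryl hydrocarbon receptor, was present in 9 genes (23.1%), against 32.4% of all genes and 29.7% of all windows, and its letters can overlap those of TGACNNNGC. The printed Mgst1 and Sult1a1 windows hold neither motif.

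Of the 41 transferase genes tested in liver, Gsta3 was the 1 past the threshold (2.44%), against a background of 0.812% of the 12683 genes tested, 0.166% higher and 0.647% lower. The median change over the 41 was 0.03, against -0.02 over all genes. Without Gsta3, the changes ran from -0.51 to 1.13, and 36 of the 40 were smaller than 0.5 on the log2 scale, with 95% intervals of ± 0.34 at the median. In 4 genes the drug and vehicle rats did not overlap, all higher with the drug, where 1.25% of all genes separated upwards and 1.75% downwards. These were Gsta3, Gstt1, Mgst2 and Ugt2b34l1.

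A further 4 members had an unadjusted p below 0.05 and did not pass after adjustment over all genes, 3 of them glutathione transferases. With Gsta3 these were 12.2% of the members, against 14.3% of all genes at that unadjusted p. Gstt1, a theta class enzyme acting on small halogenated compounds, was 7.83 to 8.60 in drug rats (median 7.97) and 6.63 to 7.77 in vehicle rats (median 7.49). Its difference was 0.68 ± 0.19 (adjusted p = 0.147). Gstt3, of the same class, was 10.57 to 11.76 in drug rats (median 11.26) and 9.20 to 11.43 in vehicle rats (median 10.06). It overlapped through vehicle rat 3003 alone, at 11.43, and the difference was 1.13 ± 0.34 (adjusted p = 0.181). Without rat 3003 Gstt3 passed the threshold (1.43, adjusted p = 0.044) and Gsta3 did not. Mgst2, a microsomal enzyme that can make leukotriene C4, was 10.46 to 11.10 in drug rats (median 10.59) and 10.10 to 10.42 in vehicle rats (median 10.29), a difference of 0.39 ± 0.12 (adjusted p = 0.177).

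The glucuronosyltransferase Ugt2b34l1 was 7.49 to 8.16 in drug livers (median 7.77) and 6.34 to 7.38 in vehicle livers (median 7.03). Its difference of 0.80 ± 0.19 had the smallest adjusted p among the members not past the threshold (0.0933). The 4 members with the brightest liver probe sets, Mgst1, Sult1e1, Sult1a1 and Gsta1, had narrow intervals around 0. Whether probe sets this bright could still register a rise was not tested. For Mgst1, which conjugates and reduces lipid peroxides in membranes, the difference was 0.00 (95% interval -0.13 to 0.13). For the oestrogen sulphotransferase Sult1e1 it was -0.10 (-0.33 to 0.13), for the phenol sulphotransferase Sult1a1 0.13 (-0.08 to 0.34) and for Gsta1 0.13 (-0.03 to 0.30).

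Marker genes of other cells moved in the same livers. Of 9 macrophage and Kupffer cell genes 5 fell, with a summed intensity of 2672 to 4539 in drug rats and 5744 to 7304 in vehicle rats. Of 6 erythroid genes tested 2 fell, with a sum over 7 genes of 178 to 591 in drug rats and 1461 to 3160 in vehicle rats. The hepatocyte sum was 96274 to 108030 in drug rats and 98554 to 107589 in vehicle rats, and 0 of its 10 genes passed the threshold (limma; 1 at an unadjusted p of 0.05). The part of these cell types in the Gsta3 result was not tested. In whole organs, fewer cells of a type and less RNA per cell cannot be told apart.

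Some liver levels varied more between rats of 1 group than between drug and vehicle. Among them was Ugt2b, a glucuronosyltransferase with the RefSeq synonym Ugt2b2, known in the rat for conjugating androsterone. Its main probe set read 12.69, 12.58 and 12.59 in drug rats with wood and 12.81, 10.61 and 8.95 in drug rats without, against 12.66, 10.47 and 8.27 in vehicle rats with wood and 12.79, 12.75 and 12.16 in vehicle rats without. Rats 2003, 2005, 3003 and 3005 were low and the other 8 rats were within 12.16 to 12.81. A second probe set for the gene read 5.63, 4.51, 5.40 and 3.45 in those 4 rats and 8.18 to 10.87 in the others, so the same 4 rats were low on both. An inherited lack of this enzyme is known in some Wistar rats, and its part here was not tested. The drug effect on Ugt2b was 0.19 ± 0.78 (adjusted p = 0.934).

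**Figure D2:**
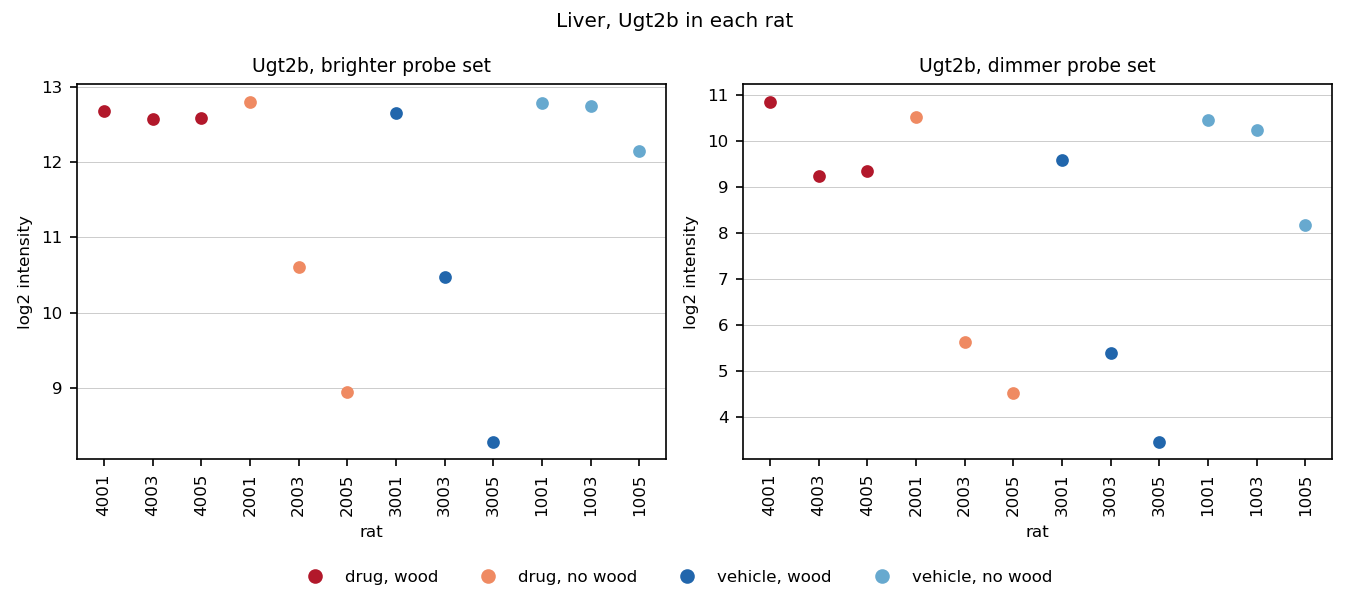
Liver log2 intensity (y axis) of Ugt2b by rat (x axis, drug rats to the left of vehicle rats) on its 2 probe sets. Rats 2003, 2005, 3003 and 3005 lie below the other 8 rats on both, at 8.27 to 10.61 against 12.16 to 12.81 on the brighter one.

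Over the 38 members with a value in every liver, the range from the lowest to the highest rat had a median of 0.99, and 7 exceeded 2. Besides Gsta3, Ugt2b and Gstt3 these included Sult2a6, a sulphotransferase of bile acids and hydroxysteroids, at 9.76 to 12.50 in drug rats and 10.16 to 11.95 in vehicle rats, with no separation (0.30 ± 0.45). Sult1c2 was 6.42 in drug rat 2001 and 7.79 to 9.44 in the other 11 livers. The 4 members not tested in liver were blank in every vehicle rat. Gstm3 had values in 3 drug rats (5.79 in rat 4003, 1.07 in rat 2001 and 7.78 in rat 2003), Sult5a1 (7.34) and Sult2b1 (4.30) had 1 each, on the array of rat 2003, and Gsta3l1 had 1 in rat 4001 (1.29).

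Wood in the cage and its interaction with the drug passed the threshold for 0 of the 41 members in liver, as for 0% of all genes (limma, unadjusted p below 0.05 in 1 and 3 members and in 781 and 650 of all genes). The smallest p for wood was that of the pi class enzyme Gstp1, known in rat liver as a marker of preneoplastic foci. It read 7.69, 7.73 and 7.94 in drug rats with wood and 7.25, 6.49 and 7.30 in drug rats without, against 7.73, 7.68 and 7.36 in vehicle rats with wood and 7.46, 7.82 and 7.66 in vehicle rats without. The wood effect was 0.36 ± 0.15 (adjusted p = 0.792) and the interaction, the drug effect with wood minus that without, was 0.83 ± 0.30 (adjusted p = 0.95). Rat 2003, whose liver array stood apart, was the lowest. Next by p for wood was Gsta3 (-0.85 ± 0.43, adjusted p = 0.832). For the interaction the smallest p was that of Sult1c2a (0.89 ± 0.30, adjusted p = 0.95), followed by Gstp1.

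In spleen, the drug moved many transferase genes both ways. Gsta1, Gstt1, Sult1a1, Mgst1 and Gstt3 rose 2.16-fold to 3.75-fold, and Mgst3 and Gsta4 fell to 0.21 and 0.31 of the vehicle level. Of the 41 members tested, 20 passed the threshold (48.8%), 13 higher and 7 lower. The background was higher still, at 55% of the 13614 genes tested (26.9% higher and 28.1% lower). By family, 10 rose and 3 fell of 19 soluble and kappa glutathione transferases, 1 rose and 1 fell of 3 Mgst genes, 0 rose and 2 fell of 7 Ugt2 genes, and 2 rose and 1 fell of 12 sulphotransferases. The median change was 0.21 over the members and -0.02 over all genes. In 10 of the 41 the drug and vehicle rats did not overlap, against 29.9% of all genes (24.4% of the members).

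**Figure D3:**
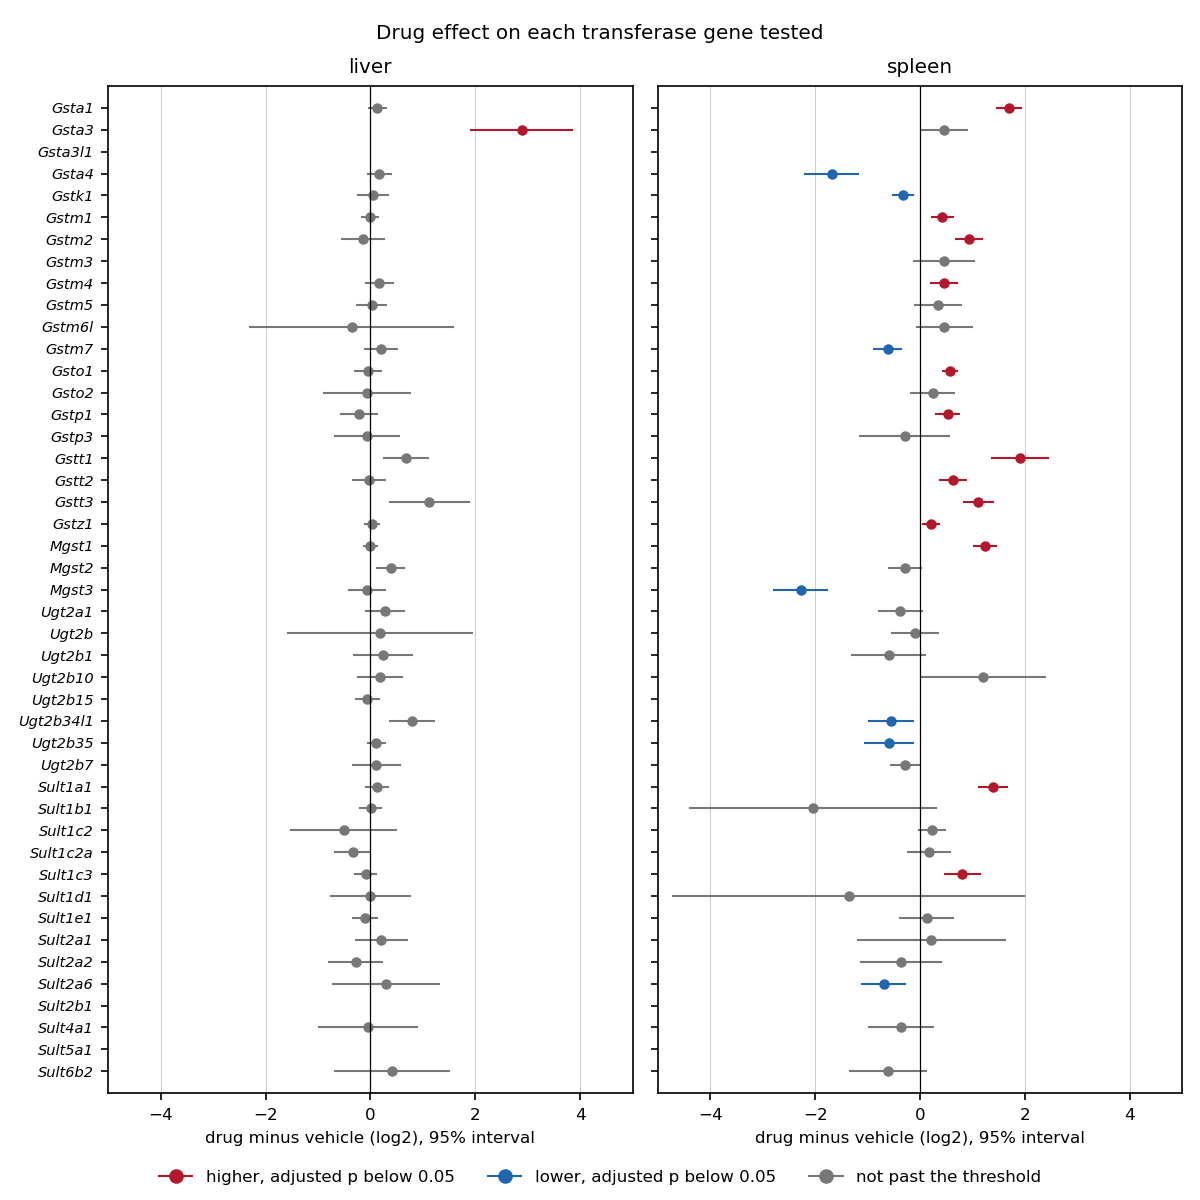
Drug minus vehicle (log2, x axis) with its 95% interval for each transferase gene tested (rows), in liver (left panel) and spleen (right panel), where red is higher and blue lower at an adjusted p below 0.05. Gsta3 at 2.89 is the 1 coloured gene in liver, and 20 genes are coloured in spleen, from Mgst3 at -2.28 to Gstt1 at 1.91.

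The alpha class enzyme Gsta1 changed with the smallest p. It read 12.28, 11.88 and 11.85 in drug spleens with wood and 11.95, 11.90 and 11.72 without, against 10.44, 10.29 and 10.66 in vehicle spleens with wood and 10.03, 9.84 and 10.14 without. Every drug rat was more than 1 log2 unit above every vehicle rat. The difference was 1.70 ± 0.10 (limma, adjusted p = 1.26e-06). Gsta3, the called gene of the liver, was 5.75 to 6.40 in drug spleens (median 5.96) and 5.01 to 6.09 in vehicle spleens (median 5.55), and its difference of 0.46 ± 0.20 did not pass (adjusted p = 0.0744), although it did without rat 1005 (0.55, adjusted p = 0.0472) or 3001 (0.58, adjusted p = 0.0236). Probe sets of such close relatives may read some of each other's RNA.

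All 3 theta class enzymes rose. Gstt1 was 8.35 to 9.35 in drug rats (median 8.74) and 5.87 to 7.41 in vehicle rats (median 7.08), a difference of 1.91 ± 0.24. Gstt3 was 11.61 to 11.86 in drug rats (median 11.77) and 10.30 to 10.95 in vehicle rats (median 10.66), a difference of 1.11 ± 0.12. Gstt2 was 7.80 to 8.36 in drug rats (median 8.08) and 7.13 to 7.73 in vehicle rats (median 7.42), a difference of 0.63 ± 0.11. In each of the 3 the lowest drug rat was above the highest vehicle rat. The same held for Gstm2 of the mu class and Gsto1 of the omega class, while the other genes of these classes overlapped. Gstm2 was 7.40 to 7.67 in drug rats (median 7.57) and 6.33 to 6.95 in vehicle rats (median 6.62), a difference of 0.94 ± 0.11. Gsto1, which reduces dehydroascorbate and arsenic compounds, was 10.81 to 11.07 in drug rats (median 10.93) and 10.20 to 10.53 in vehicle rats (median 10.35), a difference of 0.58 ± 0.06.

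Smaller rises, with overlapping rats, were seen in the pi, mu and zeta classes. Gstp1 was 11.50 to 12.01 in drug rats (median 11.95) and 11.19 to 11.57 in vehicle rats (median 11.35), a difference of 0.53 ± 0.10. Gstm1 rose by 0.43 ± 0.09 over both housings, and by 0.73 without wood but 0.13 with wood. Its vehicle rats lay between 8.85 and 9.02 with wood and between 8.24 and 8.32 without, so the low rats were those 3 with many blanks, and in the 6 rats with wood the change did not pass (adjusted p = 0.46). Gstm4 rose by 0.45 ± 0.11 and Gstz1, an enzyme of tyrosine breakdown, by 0.21 ± 0.07.

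The largest fall was that of Mgst3, a microsomal glutathione peroxidase. It read 8.35, 8.43 and 8.37 in drug spleens with wood and 8.19, 7.997 and 8.29 without, against 9.39, 9.96 and 10.93 in vehicle spleens with wood and 10.82, 11.33 and 10.85 without. The drug rats lay within 0.5 log2 units of each other and all below the vehicle rats, of which 3001 and 3003 were the lowest. The difference was -2.28 ± 0.22 (limma, adjusted p = 1.97e-05). Gsta4, which conjugates the lipid peroxidation product 4-hydroxynonenal, read 6.91, 6.83 and 5.90 in drug spleens with wood and 6.87, 6.85 and 6.97 without, against 7.56, 7.63 and 8.66 in vehicle spleens with wood and 8.71, 9.12 and 8.77 without. Rats 3001 and 3003 were again the lowest vehicle rats, and the difference was -1.69 ± 0.23. The related Mgst1 went the other way, at 10.66 to 11.49 in drug rats (median 11.00) and 9.55 to 10.01 in vehicle rats (median 9.81), a difference of 1.23 ± 0.09. Mgst2 stood at -0.29 ± 0.14 (adjusted p = 0.0953).

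**Figure D4:**
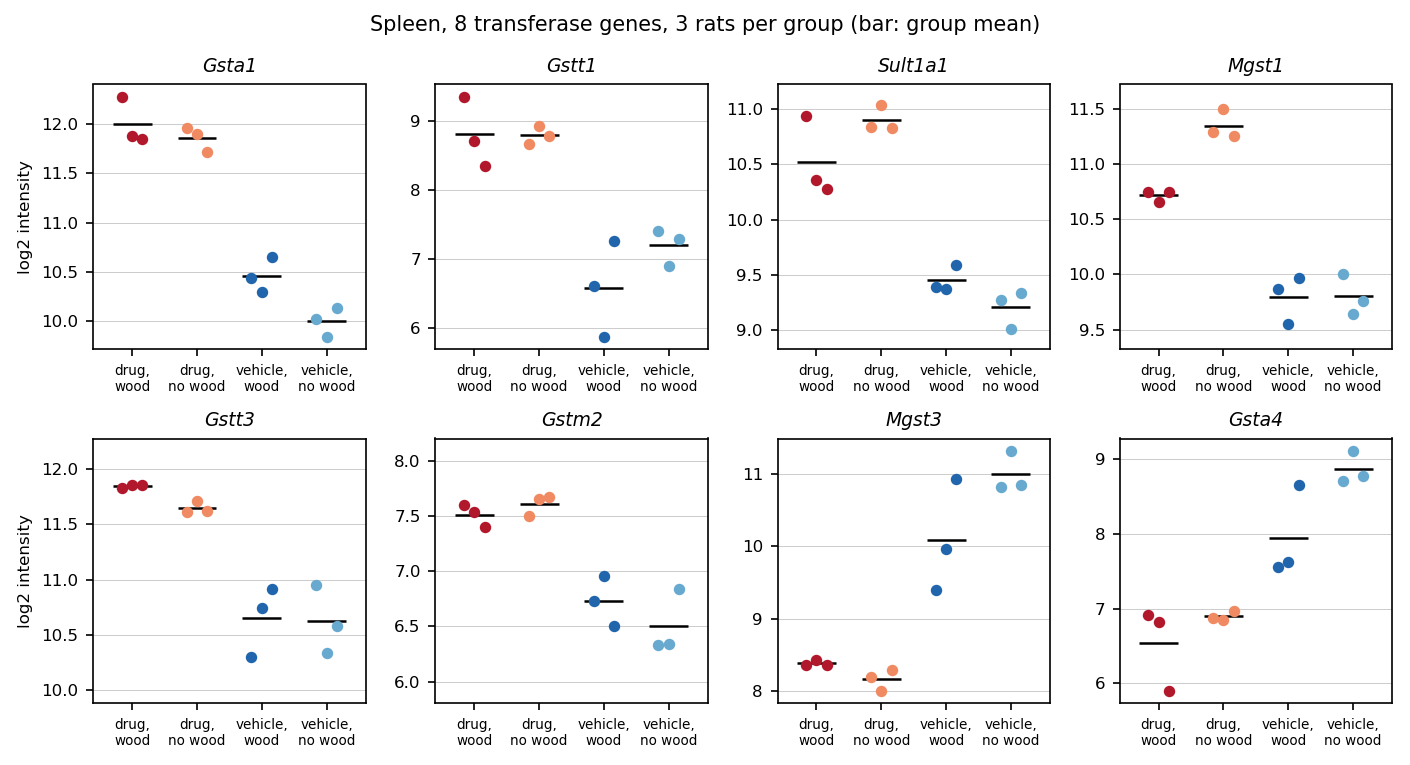
Spleen log2 intensity (y axis) of 8 transferase genes in the 3 rats of each group (points) with the group mean (bar). In each gene the 6 drug rats lie apart from the 6 vehicle rats, above them for Gsta1, Gstt1, Sult1a1, Mgst1, Gstt3 and Gstm2 and below them for Mgst3 (7.997 to 8.43 against 9.39 to 11.33) and Gsta4.

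Further falls among glutathione transferases were smaller. Gstm7 was 5.84 to 6.55 in drug rats (median 6.15) and 6.40 to 7.34 in vehicle rats (median 6.70), a difference of -0.61 ± 0.12. Gstk1, the kappa class enzyme of mitochondria and peroxisomes, stood at -0.32 ± 0.09.

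Among sulphotransferases, Sult1a1 was 10.28 to 11.04 in drug spleens (median 10.83) and 9.01 to 9.59 in vehicle spleens (median 9.35). The groups did not overlap, and the difference was 1.39 ± 0.12 (limma, adjusted p = 8.82e-06). Sult1c3 was 4.69 to 5.64 in drug spleens (median 5.05) and 4.11 to 4.89 in vehicle spleens (median 4.21), a difference of 0.81 ± 0.15 at a dim level, and in the 6 rats with wood it was 0.44 (adjusted p = 0.167). Sult2a6 fell by 0.69 ± 0.18, and the Ugt2 genes Ugt2b34l1 and Ugt2b35 by 0.55 ± 0.19 and 0.59 ± 0.20. These 3 falls and that of Gstk1 did not pass with a term for the division of spleen arrays by blanks. Gstk1 missed the threshold narrowly there (limma, adjusted p = 0.0528). In the 6 rats with wood Sult2a6 (-0.52) and Ugt2b34l1 (-0.64) did not pass, and Ugt2b35 turned to 0.23 (adjusted p = 0.429). Its vehicle rats read 4.80, 4.51 and 5.25 with wood and 6.48, 6.24 and 6.72 without, so the high rats were again the 3 with many blanks. The call on Ugt2b34l1 was lost without rat 1001, 1003, 2001 or 4001, that on Ugt2b35 when any 1 of 8 rats was left out (all but 1003, 2005, 3003 and 4001), and that on Gstz1 without rat 3003. Gstz1 was also lost with a trended, robust prior (adjusted p = 0.0638) and in the 6 rats with wood (0.33, adjusted p = 0.0513).

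Markers of several cell types moved with these changes. Of 7 erythroid genes 6 fell and 0 rose, with a summed intensity of 598 to 874 in drug spleens and 11404 to 22672 in vehicle spleens. Vehicle rats 3001 and 3003, the lowest for Mgst3 and Gsta4, had erythroid sums of 11404 and 11745, against 17148 to 22672 in the other 4 vehicle rats. All 4 B cell genes fell (sum 207 to 618 in drug spleens and 9901 to 12851 in vehicle spleens), as did 4 of 4 granulocyte genes and 4 of 5 platelet genes. The granulocyte sums overlapped, at 286 to 2123 in drug spleens and 2050 to 11023 in vehicle spleens. T cell sums overlapped too (3142 to 5181 in drug spleens and 3627 to 5362 in vehicle spleens). So did mast cell sums (270 to 363 in drug spleens and 244 to 364 in vehicle spleens). Of 9 macrophage genes 8 rose (sum 37400 to 42062 in drug spleens and 19235 to 24616 in vehicle spleens), of 9 stromal genes 8 rose (12012 to 14043 in drug spleens and 4936 to 6247 in vehicle spleens) and of 5 endothelial genes 5 rose (6823 to 8710 in drug spleens and 3827 to 5258 in vehicle spleens). The spleen of drug rat 2003 stood out for exocrine pancreas genes, with a sum of 14719, and without that rat 19 members passed, all among the 20. The part of these cell types in the transferase changes was not tested. Hepatocyte genes summed to 307 to 790 in drug spleens and 391 to 938 in vehicle spleens, and 0 of the 8 tested passed the threshold (0 also at an unadjusted p of 0.05).

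Wood in the cage passed the threshold for 4 of 41 members in spleen (9.76%), against 12.1% of all genes (6.05% higher and 6.05% lower). Gstm1 was higher with wood (0.38 ± 0.09, adjusted p = 0.0277), and Ugt2b34l1 (-0.91 ± 0.19, 0.0198), Ugt2b35 (-0.81 ± 0.20, 0.0351) and Gsto2 (-0.73 ± 0.18, 0.0342) were lower. The 3 vehicle rats without wood are the arrays with many blanks, and with a term for that division 0 members passed (limma; 108 of all genes did). Gsto2 read 5.45, 5.26 and 4.69 in drug rats with wood and 5.29, 5.80 and 5.98 without, against 4.95, 4.90 and 4.30 in vehicle rats with wood and 5.36, 5.68 and 5.84 without. Rats 2005 and 1005, both with many blanks, were the highest. Each of these calls except that on Ugt2b34l1 was lost when 1 of several rats was left out (5 for Gstm1, 8 for Gsto2 and 7 for Ugt2b35).

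The interaction of drug and wood passed for 0 of 41 members in spleen (limma; 10 at an unadjusted p of 0.05), against 0.705% of all genes. At the unadjusted p these were 24.4% of the members and 13% of all genes. The smallest p were those of Ugt2b35 (1.64 ± 0.41, adjusted p = 0.135) and Ugt2b (1.51 ± 0.39, adjusted p = 0.147), both dim in spleen. Without rat 2005, 4 members passed (9.76%), as did 7.46% of all genes. With that rat left out, the arrays with many blanks were exactly the vehicle rats without wood. The interaction and the division by blanks cannot be told apart there, and with all rats they overlap in part.

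The division of spleen arrays by blanks showed in several dim members. Ugt2b15 had values on the 4 arrays with many blanks, 4.21 in drug rat 2005 and 4.37, 4.29 and 4.19 in the vehicle rats, and was blank on the other 8. Sult5a1 and Sult2b1 were blank on exactly those 4 and had values of 5.86 to 6.62 and 4.23 to 5.38 on the other 8. In 9 further members the 4 arrays lay above all values of the other 8, and in 1, Gstm1, below. The remaining 32 overlapped. Members not tested in spleen were Gsta3l1, Sult2b1, Sult5a1 and Ugt2b15. Sult1b1 and Sult1d1 were fitted on the 8 and 7 arrays that had a value.

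**Figure D5:**
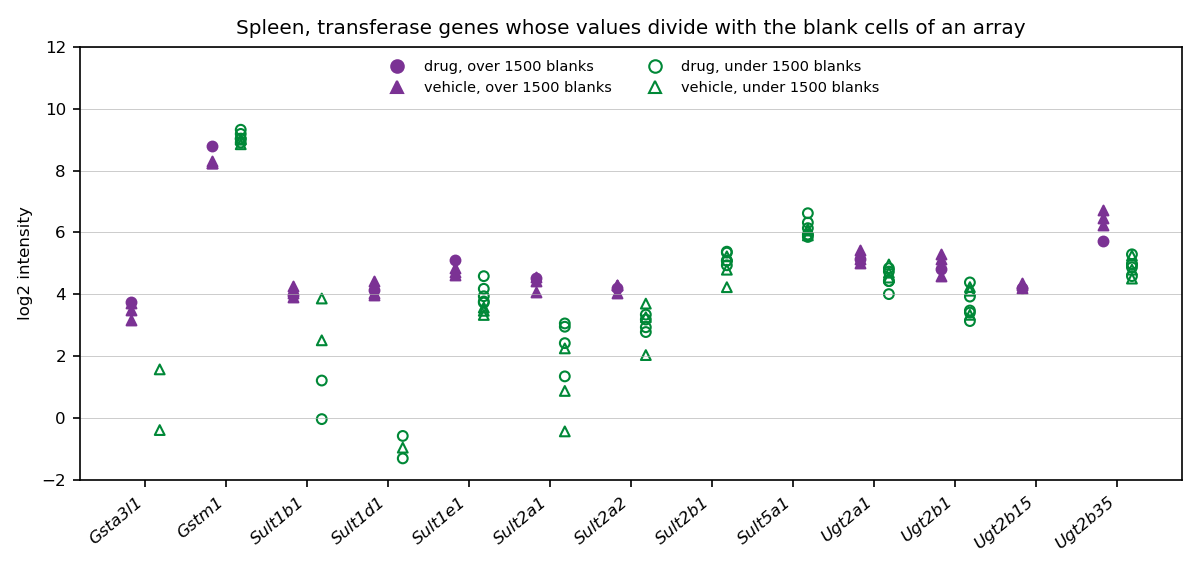
Spleen log2 intensity (y axis) of the 13 transferase genes whose values divide between the 4 arrays with over 1500 blank cells (filled, left) and the 8 with fewer (open, right), with circles for drug and triangles for vehicle rats. Ugt2b15 shows values on the 4 arrays alone (4.19 to 4.37), and Sult5a1 and Sult2b1 on the 8 alone.

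The drug effect differed between liver and spleen, by the test of the difference itself, in 17 of 40 members tested in both organs (42.5%), against 33.1% of all genes. It was higher in liver for 7 (14.7% of all genes) and lower for 10 (18.4%). Gsta3 rose by 2.89 in liver and stood at 0.46 in spleen, a difference of 2.43 ± 0.49 (adjusted p = 0.000914), and Gsta1 stood at 0.13 in liver and rose by 1.70 in spleen, a difference of -1.56 ± 0.12 (adjusted p = 1.04e-07). For Gstt3 the effects were 1.13 in liver and 1.11 in spleen, a difference of 0.01 whose 95% interval ran from -0.76 to 0.79.

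In vehicle rats, most transferases were higher in liver than in spleen. Of 40 tested, 35 passed (87.5%), 32 higher and 3 lower in liver, against 79.5% of all genes (20.2% higher and 59.2% lower). The median over all genes was -0.72, so that a difference of 0 lies above most genes, and it was -0.34 after quantile normalization and -0.36 after median centring. Sult1e1 was 13.23 to 13.42 in vehicle livers (median 13.31) and 3.33 to 4.84 in vehicle spleens (median 4.10), a difference of 9.22 ± 0.18 (limma, adjusted p = 1.73e-18). Sult1b1, which sulphates thyroid hormones, was 12.44 to 12.67 in vehicle livers and 2.51 to 4.26 in vehicle spleens with 1 of the 6 blank, a difference of 8.92 ± 0.50. Next came Sult1c3 (7.97 ± 0.12), Ugt2b (7.27 ± 0.59), Ugt2b10 (7.25 ± 0.41) and Ugt2b35 (6.89 ± 0.16). The spleen levels behind these differences were among the dimmest on the arrays, so their sizes rest on values where blanks also occur.

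The 3 members lower in liver were Gstp1, Gstm5 and Gsta3. Gstp1 was 7.36 to 7.82 in vehicle livers (median 7.67) and 11.19 to 11.57 in vehicle spleens (median 11.35), a difference of -3.73 ± 0.13. Gstm5 was 4.66 to 5.49 in vehicle livers and 6.28 to 7.40 in vehicle spleens, a difference of -1.50 ± 0.17. Gsta3 was 3.30 to 6.04 in vehicle livers and 5.01 to 6.09 in vehicle spleens, and its difference of -0.96 ± 0.35 was lost after quantile normalization (-0.62, adjusted p = 0.0959) and median centring (-0.59, adjusted p = 0.119), and without rat 1003, 3001 or 3003 (-0.59 without rat 3001, adjusted p = 0.136).

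Genes that supply, regulate and transport for these enzymes were read from 7 lists, 98 genes in all. In liver 0 of 87 tested passed for the drug (limma; 15 at an unadjusted p of 0.05, or 17.2% against 14.3% of all genes). Among those 15 were Gclc (-0.38 ± 0.11) and Gclm (-0.37 ± 0.11), the subunits of the enzyme that limits glutathione synthesis, named after their values were seen. Ugdh, which makes UDP-glucuronate and was named on the same basis, stood at 0.38 ± 0.08 (adjusted p = 0.0726).

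In spleen 46 of 88 passed (52.3%), 33 higher and 13 lower, close to the share of all genes (55%, with 26.9% higher and 28.1% lower). In glutathione synthesis and recycling 7 rose and 6 fell of 19. Gsr, which reduces glutathione disulphide, rose by 1.14 ± 0.07 and Chac2, which degrades glutathione, fell by 1.22 ± 0.18, while Oplah (0.94) and Cbs (0.93) rose. Gclm fell by 0.69 ± 0.13 and Gclc by 0.31 ± 0.08. The falls of Chac2, Gclm and Gclc did not pass in the 6 rats with wood, nor did that of Gclc when the probe sets of each gene were averaged. In those 6 rats the adjusted p was 0.0801 for Chac2 and 0.265 for Gclm (limma). The change of Chac2 stayed at -0.82 or lower under every alternative. Among peroxidases and thiol proteins 7 rose and 4 fell of 15, with Gpx7 at 1.17, Prdx6 at 0.92 and Gpx3 at 0.81, and Prdx2, the peroxiredoxin abundant in red cells, at -1.01.

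Both donor pathways had members that rose in spleen, where 26.9% of all genes rose. Of 4 genes of UDP-glucuronate supply and deconjugation 2 rose, Ugp2 (0.62 ± 0.05) and Ugdh (0.48 ± 0.07), and of 11 genes of sulphate supply and sulphatases 6 rose and 0 fell. Papss2, which makes PAPS, rose by 1.19 ± 0.07, and Tst by 1.55, Suox by 1.49 and Arsb by 1.06. Of 13 genes of methyl, acetyl and glycine conjugation 1 rose, the acetyltransferase Nat1 (1.19 ± 0.06).

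Among 13 regulators tested in spleen 6 rose and 2 fell, with Rxra at 1.86 ± 0.28, the aryl hydrocarbon receptor Ahr at 1.17 ± 0.18, its partner Arnt at 0.72 and Mafg at 0.78. Nfe2l2, which encodes NRF2, rose by 0.56 ± 0.06, and Keap1, its inhibitor, fell by 0.24 ± 0.07, both named after their values were seen, and Keap1 was lost when the probe sets of each gene were averaged, the blank term and the 6 rats with wood. Of 13 transporters 4 rose and 1 fell, with Abcc3, an exporter of glucuronides, at 1.72 ± 0.15, Slco2b1 at 1.23, Abcc5 at 0.68 and Abcb1a at -1.78 ± 0.52, the last lost with the blank term and in the 6 rats with wood.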

How the data were processed

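Rat liver and spleen RNA from 12 rats was measured on 24 Affymetrix expression arrays. The authors deposited log10 intensities, with 77831 blank cells (10.5%). The log base is not stated: read as log10, the central 98% of values spans a 2143-fold range, against 10.1-fold as log2, so log10 was taken. How probes were summarised is not stated in the labels. Values were converted to the log2 scale and blanks left missing. The annotation gives 1 gene for 20792 of the 30980 probe sets, more than 1 for 436 and no gene for 9752. A gene was represented by the probe set whose log2(intensity + 16) averaged highest over the arrays, and tested where every group had a value.

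Drug, wood and their interaction were fitted per organ over 12 arrays with limma 3.58.1 (R 4.3.3), two-sided. Liver was set against spleen in a fit over 24 arrays. P-values were adjusted by Benjamini-Hochberg over all genes tested, with a threshold of 0.05, and intervals are 95%. The number of arrays limits the precision. Each group's 3 samples are separate rats.

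The transferases, the gene lists and the alternatives were chosen with earlier results of these data known. Values or ranges are given for the called members with the smallest adjusted p in each organ, and the other called members by their change and error. For the drug effect, each rat is printed for Gsta3 in liver and for Gsta1, Mgst3 and Gsta4 in spleen. Some members not called for the drug are also printed by rat. Supporting genes are the largest changes among those called in each list. Liver and spleen of a rat share its number in the labels, so they are paired by animal. Over 10530 genes their deviations from group means correlated at -0.058 to 0.170, above those with other rats in 11 of 12 rats. Positions, synonyms and promoter windows come from RefSeq (GRCr8), with 44 of 45 genes matched by gene ID. Scripts were tested on simulated data.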

Additional observations from a re-analysis of the deposited data

Results flagged for a closer look

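The drug effect, drug minus vehicle, differed between liver and spleen by the test of the difference itself (limma, adjusted p below 0.05) in 17 of the 40 transferases tested in both organs, and the 5 with the widest gap in each direction are given here as liver minus spleen on the log2 scale. Among those higher in liver, Gsta3 (2.43) was the 1 with a called rise in liver. Mgst3 (2.21), Gsta4 (1.85) and Gstm7 (0.82) stood at -0.06, 0.17 and 0.20 in liver, in that order and not called, and fell in spleen. Ugt2b34l1 (1.35) stood at 0.80 in liver (not called) and fell by 0.55 in spleen.

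Among those lower in liver, Gsta1 (-1.56), Sult1a1 (-1.25), Mgst1 (-1.23), Gstt1 (-1.22) and Gstm2 (-1.08) all rose in spleen, while their liver changes, of -0.14 to 0.68, did not pass. Gstt1 did separate drug rats from vehicle rats in liver. Gsta1, Sult1a1 and Mgst1 were among the brightest members there, and whether their probe sets could still register a rise was not tested.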

How the results depend on the processing

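The number of transferases past the threshold kept within 1.5 times its value under every alternative that kept all rats, with 2 exceptions, both for wood in spleen. That count of 4 became 13 with log2(intensity + 16) and blanks at 0, and 0 with a term for spleen arrays with over 1500 blanks. The drug effect on Ugt2b35 in spleen turned to 0.23 (adjusted p = 0.429) in the 6 rats with wood, an alternative added after seeing the data. The causes were not tested. In the spleen, 18 members passed for the drug with the blank term (16 of them among the 20) and 16 in the 6 rats with wood (14 among the 20).

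Leaving out 1 rat at a time gave 0 to 1 members for the drug in liver, 0 for wood and 0 for the interaction in liver, 18 to 25 for the drug, 1 to 8 for wood and 0 to 4 for the interaction in spleen, 33 to 35 for liver against spleen in vehicle rats, and 16 to 21 for the organ difference of the drug effect. With the animal as a replicate block, liver against spleen gave 35 members and the organ difference of the drug effect 18. The block changed no call on the 17.

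Over all genes, the liver drug count of 103 was 177 with log2(intensity + 16) and 206 with a trended, robust prior, and it ran from 35 to 114 with 1 rat left out. It fell by over 1.5 times when any 1 of the 6 vehicle rats was left out (35 without 1001, 45 without 1003, 54 without 1005, 42 without 3001, 40 without 3003 and 41 without 3005) and without drug rats 4003 (68) and 4005 (63). The spleen interaction count of 96 was 11 when genes with any blank were left out, 173 with the blank term and 1013 without rat 2005. Without that rat, the arrays with many blanks were exactly the vehicle rats without wood. Dim probe sets limit the liver Gsta3 fold and the liver-to-spleen differences, since blanks lie among them.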

Other observations

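Probe sets that name several genes were left out of the counts above. Both probe sets shared by 8 Ugt1a genes, the other family of glucuronosyltransferases, which includes the enzyme that conjugates bilirubin, were higher in drug spleens. One read 10.60 to 11.01 in drug spleens and 8.55 to 9.06 in vehicle spleens (1.89 ± 0.10, limma over all probe sets, adjusted p = 1.49e-06). The second read 10.26 to 10.74 in drug spleens and 8.27 to 9.11 in vehicle spleens (1.64 ± 0.14, adjusted p = 1.16e-05). In liver they stood at 0.09 (adjusted p = 0.695) and 0.16 (adjusted p = 0.486). In this fit 13543 of 29020 probe sets passed in spleen and 99 of 26263 in liver.

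A probe set shared by Gsta5 and Gsta2 read 11.28 to 12.04 in drug livers and 11.99 to 12.42 in vehicle livers (-0.48 ± 0.14, adjusted p = 0.208), and 3.48 to 4.37 in drug spleens and 4.23 to 5.40 in vehicle spleens (-0.82 ± 0.24, adjusted p = 0.0165). Gsta5 is also a RefSeq synonym of Gsta3 and of Gsta1. The liver change of this shared probe set was opposite in sign to the rise of Gsta3. Which of these genes it reads was not tested. A second probe set for Gstt2 rose in spleen by 0.66 ± 0.18 (limma, adjusted p = 0.0134), beside 0.63 on the main one.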
